A study of Mus musculus with 2 samples.

Results

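Shh, Pdgfa, Vegfa, Fgf9 and Hhip encode proteins that carry signals from the lung epithelium to the mesenchyme and vessels around it, or that limit such a signal. The 5 genes were picked by symbol, not by a measured value, out of the 31053 genes listed for 1 library of single cells. The library comes from lung epithelial cells isolated by flow sorting from mouse embryos at embryonic day 15, with the genotype given as control. A second library, of the same age and sorting, carries knockouts of the LEF/TCF transcription factors, whose expression values are not analysed here. The labels name no strain, Cre driver, allele, number of embryos or pooling for either genotype. Each value below therefore describes 1 control library, without a spread between replicates and without a test, and cells were not used as replicates. The question was where in the control epithelium each signal is transcribed: in distal tip cells, in airway cells or in cells that lean towards alveolar fates.

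Shh, sonic hedgehog, is secreted by lung epithelium and binds Ptch1 on mesenchymal cells, which frees Smo and leads to transcription through the Gli factors. Hhip binds hedgehog ligands at the cell surface and limits that signal. Fgf9 is a ligand from the epithelium and the mesothelium that acts on Fgfr1 and Fgfr2 of the mesenchyme. Pdgfa is the ligand of Pdgfra, which is carried by precursors of alveolar myofibroblasts, and Vegfa acts on endothelial cells through Kdr and Flt1. In the branching lung, tips are marked by the transcription factor Sox9 and the airway stalks behind them by Sox2.

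The control library listed 3568 cell barcodes, of which 29 also occur among the 5342 barcodes of the knockout library. Of these, 3457 cells passed limits of at least 1000 detected genes and at most 10% mitochondrial UMIs. A UMI (unique molecular identifier) counts 1 captured RNA molecule. The cells kept held between 2013 and 112424 UMIs, with a median of 12826. Checked against markers, 3415 cells fell in epithelial clusters, where Epcam, Cdh1, Nkx2-1, Krt8 and Krt18 summed to 1760 CPM (UMIs of a gene in a class per 1000000 UMIs of that class). The other 42 cells were mesenchymal-like, with 16.5 CPM of these 5 genes and with Col1a1, Col1a2 and Col3a1 among their leading genes. Both sexes were present, and 249 cells had at least 4 Xist UMIs together with a UMI from the Y chromosome. These 249 cells are doublet-like, with a median of 30401 UMIs. Values without them, or in cells of at most 14000 UMIs, are given where they move a result.

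Cells were grouped without use of the 5 genes or of any pathway gene described below. The airway-like class (730 cells, median 10184 UMIs) had 125 CPM of Sox2 and 57.4 CPM of Sox9. The distal progenitor-like class (2001 cells, median 13138 UMIs) had 8.27 CPM of Sox2 and 161 CPM of Sox9. The alveolar type 2-like class (410 cells, median 14462 UMIs) was named from Sftpb, Sftpa1, Lamp3 and Napsa, 4 of 8 type 2 markers. Of the others, Abca3 was lower than in distal progenitor-like cells, at 4.93 CPM (3.37 to 6.96) against 8.39 CPM (7.43 to 9.44), Cxcl15 overlapped, and Slc34a2 and Lyz2 had 1 and 0 UMIs. Its Sox9 level, 152 CPM, was close to that of the distal progenitor-like class. A cluster of 210 cells led by Smoc2 (median 11464 UMIs) had 118 CPM of Ager, a type 1 marker, against 63.6 CPM in distal progenitor-like cells. Its raised markers were mixed, with Ager and Clic5 for type 1, Krt15 for the airway, and Uchl1 and Tppp3 of other lists. The distal markers Etv5, Sftpc and Mia passed the limit set for a distal name, but Krt15 was its second leading gene, so the cluster is called Smoc2-led. The remaining epithelial cells fell in clusters too small to describe gene by gene.

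Fgf9 and Hhip differed most between tip and airway, and the 250 bases before their start sites are shown because the results turn on them. The sequences are from RefSeq on GRCm38.p6, which is mm10. The Fgf9 window is chr14:58072436-58072685 on the plus strand, next to the first exon of a coding transcript and inside an intron of a longer one. The Hhip window is chr8:80058009-80058258 on the minus strand, upstream of the gene. Both read 5′ to 3′ towards the gene, and capitals in the Fgf9 line mark a match to the core of the hypoxia response element.
Fgf9: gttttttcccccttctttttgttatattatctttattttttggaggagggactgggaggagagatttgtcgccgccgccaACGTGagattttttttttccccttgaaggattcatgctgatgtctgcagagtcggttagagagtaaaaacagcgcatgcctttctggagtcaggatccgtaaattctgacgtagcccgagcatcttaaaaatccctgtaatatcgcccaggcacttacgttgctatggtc
Hhip: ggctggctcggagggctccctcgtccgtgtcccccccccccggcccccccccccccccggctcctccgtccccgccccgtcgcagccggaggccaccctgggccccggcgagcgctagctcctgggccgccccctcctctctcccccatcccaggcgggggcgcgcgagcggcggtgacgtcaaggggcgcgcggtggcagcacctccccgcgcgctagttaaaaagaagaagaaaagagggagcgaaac
The pair differ in base composition, with 44.8% G and C in the Fgf9 window and 76.0% in the Hhip window. A search for 3 motifs covered both strands of windows of this length before 32851 RefSeq starts. The hypoxia core (ACGTG or GCGTG) has a match in 38.6% of all windows, in the Fgf9 window once and in the Hhip window not at all. The SOX core (ACAAT, in 27.7% of windows) and the Gli motif (GACCACCCA, in 0.225% of windows) have no match in either window.

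Shh was transcribed throughout the epithelium. Its summed level over all 3415 epithelial cells was 60.3 CPM (95% Poisson interval 58.2 to 62.4, from 3212 UMIs). Airway-like cells were highest at 70.2 CPM (65.2 to 75.5), followed by distal progenitor-like cells at 60.6 CPM (58.0 to 63.4). The Smoc2-led cluster had 51.3 CPM (43.2 to 60.4) and the alveolar type 2-like class 48.4 CPM (43.2 to 54). Every interval given here is a 95% interval for counting error alone. Airway-like and distal progenitor-like cells stood apart, the Smoc2-led interval overlapped both that of distal progenitor-like and that of alveolar type 2-like cells, and the last 2 classes named stood below the airway. In cells of at most 14000 UMIs the airway-like interval (58.8 to 75.3) overlapped that of distal progenitor-like cells (53.5 to 62.7) and that of the Smoc2-led cluster (39.1 to 60.5). The 42 mesenchymal-like cells had 1 Shh UMI, 2.76 CPM (0.0698 to 15.4).

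Shh overlaps other transcripts on the opposite strand. The gene spans chr5:28456815-28467256 on the minus strand (ENSMUSG00000002633, GENCODE M21 on GRCm38). The matrix also lists Gm26894, with 935 epithelial UMIs, and 9530036O11Rik, with 442, both annotated on the plus strand over Shh. Gm26894 was at 18.4 CPM in airway-like cells (15.9 to 21.2) and 18.1 CPM in distal progenitor-like cells (16.6 to 19.6), with intervals that overlapped. The sources used here do not state whether strand was used in counting, so the division of reads between Shh and these partners is uncertain.

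Pdgfa was likewise found in every epithelial class. It had 116 CPM over the epithelium (113 to 118, from 6157 UMIs). The Smoc2-led cluster had 129 CPM (116 to 143) and distal progenitor-like cells 123 CPM (119 to 127), which did not differ beyond their intervals. Airway-like cells had 97.7 CPM (91.8 to 104) and alveolar type 2-like cells 97.2 CPM (89.8 to 105), which overlapped each other and lay below the first pair. A single Pdgfa UMI, 2.76 CPM (0.0698 to 15.4), fell in mesenchymal-like cells. The gene spans chr5:138976014-138997370 on the minus strand (ENSMUSG00000025856). Its opposite-strand neighbour 6330403L08Rik had 36 epithelial UMIs.

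Vegfa was detected at few UMIs per cell, and its classes were harder to tell apart. It had 7.40 CPM over the epithelium (6.68 to 8.16, from 394 UMIs). Airway-like cells had 8.67 CPM (6.97 to 10.7), distal progenitor-like cells 8.06 CPM (7.12 to 9.09) and the Smoc2-led cluster 5.38 CPM (3.01 to 8.88), with intervals that overlapped. Alveolar type 2-like cells were lowest at 2.93 CPM (1.76 to 4.57), below the first 2 of these. Mesenchymal-like cells had 11 CPM from 4 UMIs (3.0 to 28.2), an interval that held the epithelial level. The gene spans chr17:46016993-46032369 on the minus strand (ENSMUSG00000023951).

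Fgf9 was a transcript of the distal epithelium. Its level was 9.70 CPM in alveolar type 2-like cells (7.46 to 12.4) and 8.03 CPM in distal progenitor-like cells (7.09 to 9.05), which overlapped. It was 2.15 CPM in the Smoc2-led cluster (0.790 to 4.69) and 1.54 CPM in airway-like cells (0.881 to 2.50), which overlapped each other and lay below the first pair. No Fgf9 UMI fell in the mesenchymal-like cells, whose small depth allows up to 8.27 CPM (3 counts over the class). The gene spans chr14:58070547-58112720 on the plus strand (ENSMUSG00000021974).

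Hhip showed the opposite order. Airway-like cells had 11.4 CPM (9.41 to 13.6), the Smoc2-led cluster 3.95 CPM (1.97 to 7.06), distal progenitor-like cells 2.73 CPM (2.19 to 3.35) and alveolar type 2-like cells 0.308 CPM from 2 UMIs (0.0373 to 1.11). Airway-like cells stood above the other 3 classes, the middle pair overlapped, and alveolar type 2-like cells stood below the rest. In cells of at most 14000 UMIs the alveolar type 2-like interval (0 to 1.79) overlapped those of distal progenitor-like cells (1.58 to 3.54) and of the Smoc2-led cluster (0.935 to 6.72). The mesenchymal-like cells had 52.4 CPM from 19 UMIs (31.5 to 81.8), 12.5 times the epithelial level (ratio interval 7.39 to 20). The gene spans chr8:79965851-80058006 on the minus strand (ENSMUSG00000064325).

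**Figure D1:**
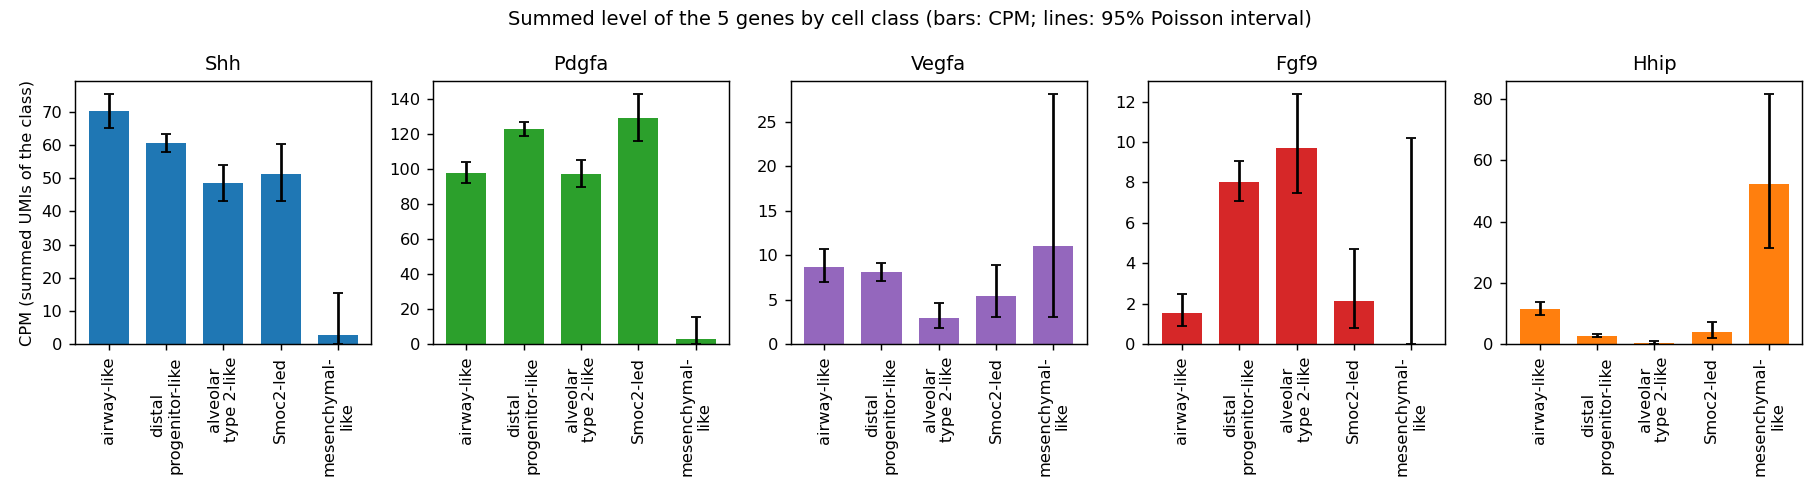
Summed level of each gene (vertical axis, CPM from 0, a different scale in each panel) in 5 cell classes. Bars are the level and lines the 95% Poisson interval. Over the epithelial classes drawn, Shh lies between 48.4 CPM (alveolar type 2-like) and 70.2 CPM (airway-like). Pdgfa lies between 97.2 CPM (alveolar type 2-like) and 129 CPM (Smoc2-led). Fgf9 is at 8.03 and 9.70 CPM in the distal progenitor-like and alveolar type 2-like classes against 1.54 CPM in airway-like cells. Hhip has its highest epithelial level, 11.4 CPM, in airway-like cells.

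Shares of cells with a UMI were also taken at equal depth. For this, 5000 UMIs were drawn from each cell, and 88 epithelial cells with fewer were dropped. A Shh UMI was then found in 25.1% of 3327 epithelial cells (exact binomial interval 23.6% to 26.6%), and in 52.7% before thinning. In the 38 mesenchymal-like cells of that depth the share was 2.63% (0.0666% to 13.8%), the background for a gene that mesenchyme should lack. The median depths before thinning were 12908 UMIs in epithelial and 7674.5 UMIs in mesenchymal-like cells. A Pdgfa UMI was found in 44.1% of epithelial cells (42.4% to 45.8%; 72.9% unthinned) and in none of the 38 mesenchymal-like cells. The shares of epithelial cells were 3.04% for Vegfa (2.48% to 3.68%), 2.95% for Fgf9 (2.40% to 3.58%) and 1.95% for Hhip (1.51% to 2.48%).

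By class, the Fgf9 share was 3.52% of 1962 distal progenitor-like cells (2.75% to 4.43%), 5.12% of alveolar type 2-like cells (3.20% to 7.72%) and 0.435% of 689 airway-like cells (0.0899% to 1.27%). The Hhip share was 1.17% of distal progenitor-like cells (0.745% to 1.75%) and 5.52% of airway-like cells (3.93% to 7.49%). No alveolar type 2-like cell of the 410 had a Hhip UMI after thinning. Taking 3 counts as the limit for 0, this allows a share of up to 0.732%, and the exact binomial interval reaches 0.896%. For Shh the share was 30.6% in airway-like (27.2% to 34.2%) and 24.3% in distal progenitor-like cells (22.4% to 26.2%). For Pdgfa it was 36.7% in airway-like (33.1% to 40.4%) and 47.1% in distal progenitor-like cells (44.9% to 49.3%). Between airway-like and distal progenitor-like cells, these 4 genes kept the order seen in CPM. Some other gaps seen in CPM were not seen in shares. In alveolar type 2-like cells the shares of Shh, 21.7% (17.8% to 26.0%), and Vegfa, 1.22% (0.397% to 2.82%), overlapped those of distal progenitor-like cells. So did the Fgf9 share of the Smoc2-led cluster, 1.90% (0.521% to 4.80%), which also overlapped that of alveolar type 2-like cells. The Hhip interval of alveolar type 2-like cells overlapped those of distal progenitor-like cells and of the Smoc2-led cluster, 0.952% (0.116% to 3.40%). The Smoc2-led Shh share, 23.3% (17.8% to 29.6%), overlapped that of airway-like cells. The alveolar type 2-like Pdgfa share, 36.8% (32.1% to 41.7%), stayed below that of distal progenitor-like cells.

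The distal progenitor-like class was then set against the airway-like class for each gene. Fgf9 was 5.21 times higher in distal progenitor-like cells (exact conditional interval 3.15 to 9.24), from 265 UMIs against 16. Hhip was 4.17 times higher in airway-like cells (3.14 to 5.55), from 118 UMIs against 90. Pdgfa was 1.26 times higher in distal progenitor-like cells (1.18 to 1.35). Shh was 1.16 times higher in airway-like cells (1.06 to 1.26). The Vegfa ratio, distal progenitor-like to airway-like, was 0.929 (0.729 to 1.19), which included 1. The classes also differed in quality measures, with a median mitochondrial share of 3.23% in airway-like and 2.76% in distal progenitor-like cells and 8583 and 4427 CPM of the nuclear RNA Malat1. The part of these measures in the ratios was not tested.

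With a limit of 2-fold, 1 of the 5 genes was higher in distal progenitor-like cells and 1 was lower. Over the 11471 genes with at least 50 UMIs in the 2 classes, 2.74% were at least 2-fold higher and 5.66% at least 2-fold lower. Among the 10184 of these that had no part in the clustering, as the 5 genes had none, the shares were 2.26% and 2.99%. The median log2 ratio of all genes was -0.13, so the Shh ratio, -0.21 on the log2 scale, lay near the middle of all genes and the Pdgfa ratio, 0.34, to the distal side of it.

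**Figure D2:**
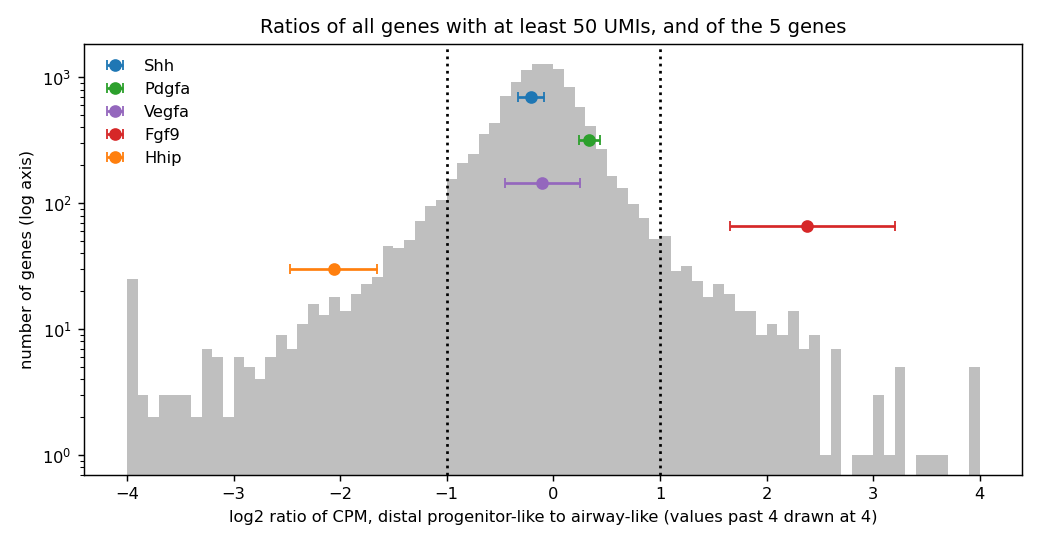
Histogram of the log2 ratio of CPM, distal progenitor-like to airway-like (horizontal axis), for the 11471 genes with at least 50 UMIs (vertical axis, number of genes, log scale). Coloured points with 95% intervals are the 5 genes, placed at arbitrary heights, and dotted lines mark 2-fold. Fgf9 at 2.38 and Hhip at -2.06 lie outside the dotted lines, the other 3 inside.

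The airway Fgf9 came from deep cells. The 463 airway-like cells of at most 14000 UMIs had 0 Fgf9 UMIs, while the 267 deeper ones had all 16. In cells of at most 14000 UMIs the distal progenitor-like level, 7.82 CPM, was at least 10.1-fold higher than the airway-like level, taking 3 counts over the class as the limit for 0. Among airway-like cells of at least 5000 UMIs, 13 had a Fgf9 UMI. Their median depth was 25471 UMIs against 10551.5 in the other 676, and 61.5% against 10.2% were doublet-like by Xist and Y. Picking cells by an unthinned UMI favours deep cells, and the Xist and Y mark favours them too. Airway-like cells with a Hhip UMI likewise had 17385 UMIs against 10170, and 19.0% against 9.85% were doublet-like. The part of doublets in airway Fgf9 was not tested. At 5000 UMIs per cell, the Fgf9 and Hhip picks could also be compared by markers. Summed distal progenitor markers were at 2920 CPM in the 13 cells with a Fgf9 UMI against 629 CPM in the other 676. With and without a Hhip UMI they were at 734 and 662 CPM. Summed airway markers were lower in both picks. They were at 138 CPM with a Fgf9 UMI against 552 CPM without, and at 340 CPM with a Hhip UMI against 579 CPM without. Without the doublet-like cells, airway-like Fgf9 was at 0.871 CPM from 7 UMIs (0.350 to 1.80).

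Hhip in distal progenitor-like cells also moved with that sign. The 156 doublet-like distal progenitor-like cells had 5.23 CPM of Hhip (3.50 to 7.50) and 20.7 CPM of Sox2. The other 1845 had 2.22 CPM of Hhip (1.70 to 2.85) and 5.75 CPM of Sox2. Airway-like Hhip did not move, at 11.1 CPM in doublet-like cells (7.24 to 16.2) and 11.5 CPM in the others (9.23 to 14). It was 11.6 CPM in airway-like cells of at most 14000 UMIs (8.48 to 15.6).

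Mesenchymal RNA in the airway-like class was near 0. The 8 mesenchymal markers summed to 0.867 CPM in airway-like cells, with 6 of the 8 at 0, against 1.39 CPM in distal progenitor-like cells and 1510 CPM in mesenchymal-like cells. The 100 airway-like cells of at least 5000 UMIs with a Hhip UMI had 1 mesenchymal marker UMI in all after thinning. The 6 mesothelial markers, a cell type that can also make Fgf9, summed to 1.09 CPM in distal progenitor-like cells and 1.73 CPM in airway-like cells.

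A split by Sox9 and Sox2 UMIs in place of the classes gave the same directions. It used clusters only to select epithelial cells. It is not independent of the classes, since it draws on the same cells and Sox2 and Sox9 were free to shape the clusters. The 1885 epithelial cells with a Sox9 UMI and no Sox2 UMI (median 14161 UMIs) had 8.98 CPM of Fgf9 (7.97 to 10.1) and 1.64 CPM of Hhip (1.23 to 2.16). The 412 cells with a Sox2 UMI and no Sox9 UMI (median 9824.5 UMIs) had 0.411 CPM of Fgf9 from 2 UMIs (0.0498 to 1.49) and 10.5 CPM of Hhip (7.81 to 13.8). Shh was at 58.4 CPM in the first group (55.8 to 61.1) and 65.8 CPM in the second (58.8 to 73.4), with intervals that overlapped. Pdgfa was at 117 CPM (114 to 121) and 97.1 CPM (88.5 to 106), and Vegfa at 6.80 CPM (5.92 to 7.77) and 7.40 CPM (5.19 to 10.2).

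Over finer groups the same pair followed Sox9 and Sox2. At a higher clustering resolution, 34 clusters held at least 30 epithelial cells each. Fgf9 ran from 0 to 14.9 CPM over them (median 7.36) and Hhip from 0 to 12.3 CPM (median 2.76). On the scale log2(CPM + 10), Pearson's r over the 34 clusters was 0.847 for Fgf9 with Sox9 and -0.719 for Fgf9 with Sox2. For Hhip it was 0.899 with Sox2 and -0.707 with Sox9, and for Fgf9 with Hhip it was -0.708. Shh, Pdgfa and Vegfa had values with Sox9 of -0.0786, 0.402 and -0.0618. These are descriptions: the clusters come from 1 library and differ in depth, and Sox2 and Sox9 were free to shape the clusters.

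**Figure D3:**
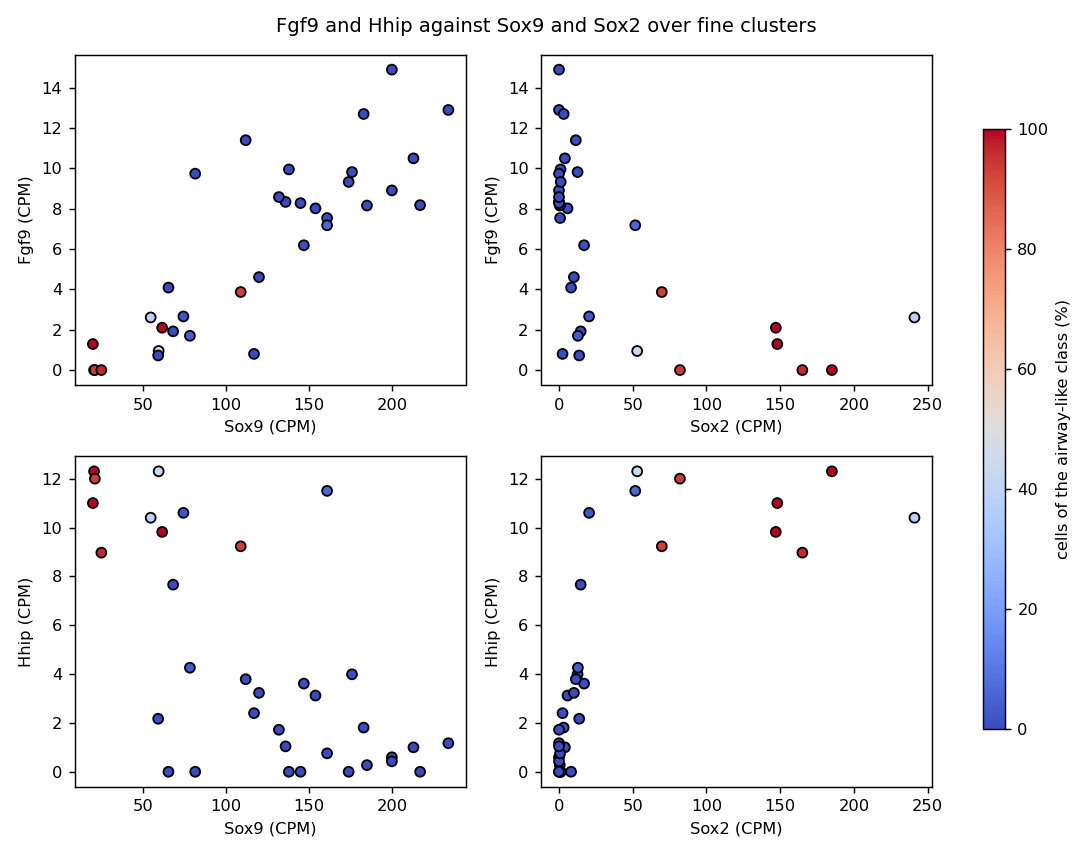
Fgf9 (upper row) and Hhip (lower row) against Sox9 (left) and Sox2 (right), all in CPM, with 1 point for each of 34 fine clusters of epithelial cells. Colour gives the percentage of the cluster's cells in the airway-like class. Fgf9 is at 14.9 CPM at most and near 0 in clusters of mainly airway-like cells with low Sox9, while Hhip reaches 12.3 CPM there.

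One fine cluster of 77 distal progenitor-like cells, singled out after its values were seen, had the highest Shh and Vegfa levels of the 34. Shh was at 119 CPM in it (91.8 to 153, from 63 UMIs) against 59.7 CPM in all other epithelial cells (57.6 to 61.8). Vegfa was at 26.5 CPM (14.5 to 44.5, from 14 UMIs) against 7.20 CPM (6.50 to 7.97). Pdgfa, at 140 CPM (110 to 176) against 115 CPM (112 to 118), overlapped. These cells also differed in quality measures, with a median of 5864 UMIs against 13046.5, a mitochondrial share of 5.21% against 2.70% and a ribosomal protein gene share of 25.6% against 32.5%. Their part in the higher Shh and Vegfa was not tested. Their leading genes were Bcam, Ncln, Ager, Arl6ip1 and Lamb1, at 2.80 to 3.07 times the level of the other cells after 10 CPM was added to both. The next highest fine clusters had 76.2 CPM of Shh and 14.4 CPM of Vegfa. Without these 77 cells, r of Shh with Vegfa fell from 0.480 to 0.246, and the distal progenitor-like to airway-like ratios were 0.850 for Shh and 0.894 for Vegfa.

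The genes whose pattern over the 34 clusters was most like each signal were named by r, among 7041 or 7042 other genes with at least 500 UMIs. For Fgf9 they were Fam213a (r = 0.911), the distal progenitor marker Id2 (0.909), Dram1 (0.894) and Tpd52l1 (0.892). For Hhip they were the potassium channel gene Kcnk2 (0.941), Igfbp5 (0.911), Mal2 (0.907) and Adamtsl1 (0.903). All 8 were among the genes used for clustering. For Shh they were Clstn1 (0.857), Gatad2b (0.853), the actin crosslinker Actn4 (0.845) and Thoc2 (0.829). For Pdgfa they were Cad (0.742), an enzyme of pyrimidine synthesis, 2410017I17Rik (0.706), Ctnnd2 (0.706) and Raph1 (0.698). For Vegfa they were Brd8 (0.736), Map3k10 (0.729), Bora (0.720) and BC003965 (0.715). Without the fine cluster of 77 cells, Clstn1 dropped to rank 18 and Thoc2 to rank 11 for Shh, and BC003965 to rank 43 for Vegfa.

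Alveolar-leaning cells were described along the share of UMIs in marker lists, because the clusters that divide the distal cells changed with the settings. The 2685 epithelial cells outside the airway-like class were put in 5 bins of 537 by the share of 9 type 1 markers, and separately by that of 8 type 2 markers. A bin is a range of a score, not a cell type. Median depth per bin lay between 10530 and 15123 UMIs along the type 1 score and between 10295 and 14640 UMIs along the type 2 score. With 638 cells at 0 type 2 markers, the division between the first and second type 2 bins is partly arbitrary. The type 2 score leans on 1 gene: in distal progenitor-like cells Cxcl15 made up 93.3 of the 185 CPM of the 8 markers. Cxcl15 was lower in airway-like cells, at 26.7 CPM, and was not raised in the alveolar type 2-like class. The part of Cxcl15 in the courses along the type 2 bins was not tested.

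Shh, Pdgfa and Vegfa were higher where type 1 markers were higher. From the lowest to the highest type 1 bin, Shh went from 49.9 CPM (44.6 to 55.6) to 66.9 CPM (61.5 to 72.7), a ratio of 1.34 (1.17 to 1.54). Pdgfa went from 104 CPM (96.2 to 112) to 138 CPM (130 to 146), and was higher in each bin than in the one before. For cells up to 14000 UMIs its levels were 104, 114, 99.8, 128 and 150 CPM, so the rise was not stepwise there. Vegfa went from 4.92 CPM (3.37 to 6.95) to 8.49 CPM (6.62 to 10.7), or 1.72 times as much (1.12 to 2.71). For cells up to 14000 UMIs the Vegfa ratio was 1.59 (0.839 to 3.05), which included 1. Fgf9 ran the other way, from 8.62 CPM (6.51 to 11.2) to 4.24 CPM (2.96 to 5.90), a ratio of 0.492 (0.313 to 0.765). For cells up to 14000 UMIs that ratio was 0.675 (0.324 to 1.35), which included 1. Hhip went from 1.85 CPM (0.954 to 3.23) to 3.76 CPM (2.55 to 5.33), 2.04 times as much (1.02 to 4.35). For cells up to 14000 UMIs the Hhip interval was 0.592 to 5.33. The fine cluster with the highest Shh and Vegfa levels was kept in these bins. Ager, a type 1 marker, was at 190 CPM in that cluster against 57.8 CPM in the other epithelial cells. The part of that cluster in the higher Shh and Vegfa along type 1 markers was not tested.

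Fgf9 and Hhip moved in opposite directions along the type 2 markers. Fgf9 was at 4.14, 5.86, 7.51, 7.97 and 13.2 CPM from the lowest to the highest bin, with a ratio of the last to the first of 3.19 (2.05 to 5.15). Hhip was at 5.63, 2.93, 1.85, 2.02 and 0.734 CPM, and was 7.67 times lower in the last bin than in the first (3.18 to 22.4). Pdgfa went from 134 CPM (124 to 143) to 109 CPM (102 to 116), a ratio of 0.816 (0.741 to 0.898). Shh went from 59.5 CPM (53.5 to 65.9) to 51.1 CPM (46.4 to 56.3), or 0.860 times (0.745 to 0.993). That Shh interval included 1 in cells up to 14000 UMIs (0.714 to 1.09) and without doublet-like cells (0.748 to 1.01). Vegfa went from 6.13 CPM to 7.83 CPM, and the interval of its ratio included 1 (0.840 to 1.97). For cells up to 14000 UMIs, the Fgf9 ratio was 2.88 (1.60 to 5.37) and Hhip was 7.50 times lower (1.83 to 66.0).

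**Figure D4:**
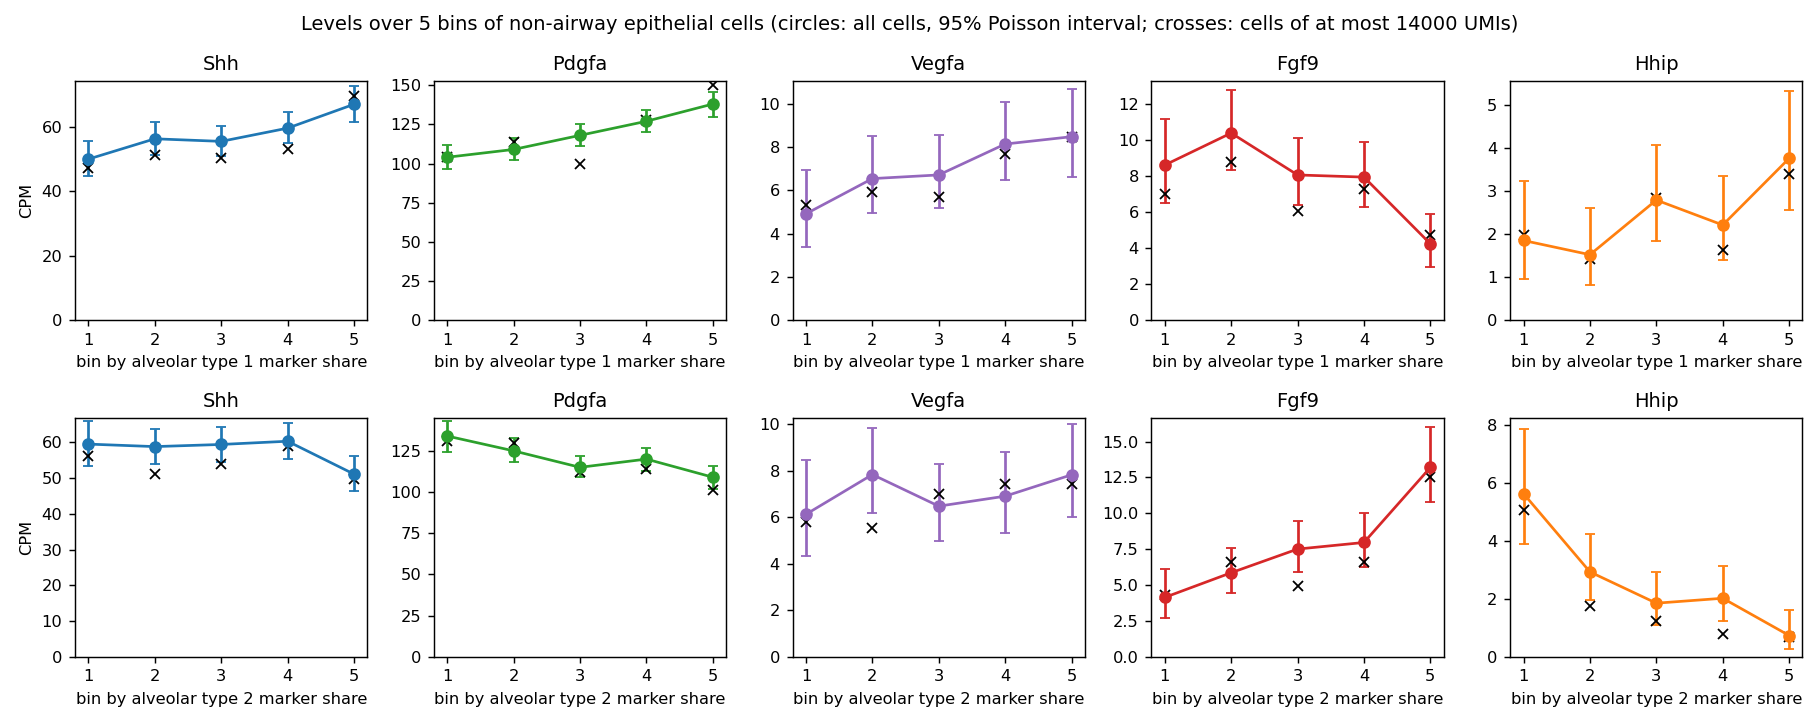
Levels of the 5 genes (vertical axes, CPM from 0) in 5 bins of 537 non-airway epithelial cells, ordered by the share of type 1 markers (upper row) or of type 2 markers (lower row). Circles are all cells with 95% Poisson intervals, and crosses are cells of at most 14000 UMIs. Along type 2 markers Fgf9 goes from 4.14 to 13.2 CPM while Hhip goes from 5.63 to 0.734 CPM.

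The clusters repeated part of this. In alveolar type 2-like against distal progenitor-like cells, 2 of the 5 genes were at least 2-fold lower, where 4.02% of 11152 genes were, and none was 2-fold higher, where 0.305% were. Hhip had 2 UMIs against 90, a ratio of 0.113 (0.0135 to 0.420), but the ratio was 0.973 when 1000 variable genes were used for clustering. Vegfa had a ratio of 0.363 (0.215 to 0.579), which does not match its course along the type 2 bins. Its direction turned in 2 of 11 alternatives, with ratios of 1.02 and 1.06. The Fgf9 ratio was 1.21 (0.904 to 1.60), which included 1. Pdgfa at 0.789 (0.724 to 0.858) and Shh at 0.798 (0.706 to 0.899) were lower, but Shh reached 1.04 and 1.05 and Pdgfa 1.02 under other clusterings.

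In the Smoc2-led cluster 1 gene, Fgf9, was at least 2-fold lower than in distal progenitor-like cells, where 6.91% of 11033 genes were. None was 2-fold higher, where 2.26% were. The Fgf9 ratio was 0.268 (0.0975 to 0.592), from 6 UMIs. The other intervals held 1 or reached it: Shh 0.846 (0.709 to 1.0), Vegfa 0.668 (0.369 to 1.12), Pdgfa 1.05 (0.939 to 1.17) and Hhip 1.45 (0.698 to 2.72).

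Within the airway, Hhip was the gene of the 5 whose interval left out 1 when cells were divided by the secretory marker Scgb3a2. The 483 airway-like cells without a Scgb3a2 UMI at 5000 UMIs had 12.9 CPM of Hhip (10.4 to 15.8), and the 206 with one had 7.50 CPM (4.76 to 11.3), a ratio of 0.583 (0.352 to 0.929). The ratios of Shh at 1.13 (0.959 to 1.32), Pdgfa at 1.05 (0.915 to 1.20), Vegfa at 0.720 (0.419 to 1.19) and Fgf9 at 0.538 (0.0984 to 1.96) had intervals that held 1. Airway-like cells with a UMI of the proliferation genes Mki67 or Top2a also had less Hhip, 7.82 CPM (5.24 to 11.2) against 13.2 CPM (10.6 to 16.3). Their median depths were 14106 and 9780 UMIs, and 15.5% and 9.24% of them were doublet-like. In distal progenitor-like cells, those with such a UMI had 8.83 CPM of Fgf9 (7.58 to 10.2) and those without 6.78 CPM (5.43 to 8.37), a ratio of 1.30 whose interval started at 1.0. The median depths were 14838 and 11292.5 UMIs. Shh had a ratio of 0.958 (0.875 to 1.05) there, Vegfa 1.02 (0.789 to 1.32), Pdgfa 1.07 (1.0 to 1.14) and Hhip 1.35 (0.852 to 2.17).

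UMIs of the 5 genes met in cells about as often as the product of their single shares gives. At 5000 UMIs, Shh and Pdgfa UMIs met in 370 of 3327 epithelial cells, 11.1% (10.1% to 12.2%), and the product of their shares was 11.1%. Fgf9 and Shh met in 17 cells, where the product gives 24.6 cells. The product lay inside the interval of the joint share in all 10 pairs over the epithelium and within the airway-like and distal progenitor-like classes. It did so for the 6 pairs without Hhip in alveolar type 2-like cells, where no cell had a Hhip UMI and the other 4 pairs say nothing. Pairs of the rarer genes say little in any class, because the product gives so few cells that it could hardly lie outside. It gives 0.126 cells for Vegfa with Fgf9 in airway-like cells and 0.809 for Fgf9 with Hhip in distal progenitor-like cells. At this depth 38.6% of epithelial cells had no UMI of the 5 genes, 46.8% had UMIs of 1 gene, 13.5% of 2 and 1.08% of 3 or more. Separate or joint transcription in single cells was not detectable at this depth.

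Pdgfra, Pdgfrb, Ptch1 and Gli1 were higher in the 42 mesenchymal-like cells than in the epithelium. Pdgfra had 0.131 CPM in epithelial cells (0.0528 to 0.271) and 24.8 CPM in mesenchymal-like cells (11.3 to 47.1). Pdgfrb, a PDGF receptor of perivascular cells, had 0.131 CPM (0.0528 to 0.271) and 60.6 CPM (38.0 to 91.8). Ptch1, receptor and target of hedgehog, had 49.0 CPM in the epithelium (47.1 to 50.9) and 135 CPM in mesenchymal-like cells (99.9 to 179). Gli1, a target of hedgehog, had 0.30 CPM (0.172 to 0.488) and 24.8 CPM (11.3 to 47.1), while Smo had 31.7 CPM (30.2 to 33.3) and 44.1 CPM (25.2 to 71.6). Gli1 is not a receptor and was chosen after its values were seen.

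Receptors of the FGF family were not limited to the mesenchyme. Fgfr2 had 117 CPM in epithelial cells (114 to 120) and 35.8 CPM in mesenchymal-like cells (19.1 to 61.3). Fgfr1 had 17.5 CPM (16.4 to 18.7) and 30.3 CPM (15.1 to 54.2). The VEGF receptors Kdr and Flt1, markers of endothelium, had 1 and 7 UMIs in all epithelial cells and none in mesenchymal-like cells. Of the 5 genes, Hhip was at least 2-fold higher in mesenchymal-like than in epithelial cells, where 13.3% of 11810 genes were. With genes at 0 counted as lower, 3 of the 5 genes (Shh, Pdgfa and Fgf9) were at least 2-fold lower, where 25.0% of the 11810 genes were. Fgf9 counts there only through its 0 UMIs. The limit of 8.27 CPM lies above its epithelial level of 6.63 CPM, so a lower Fgf9 level is not shown.

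**Figure D5:**
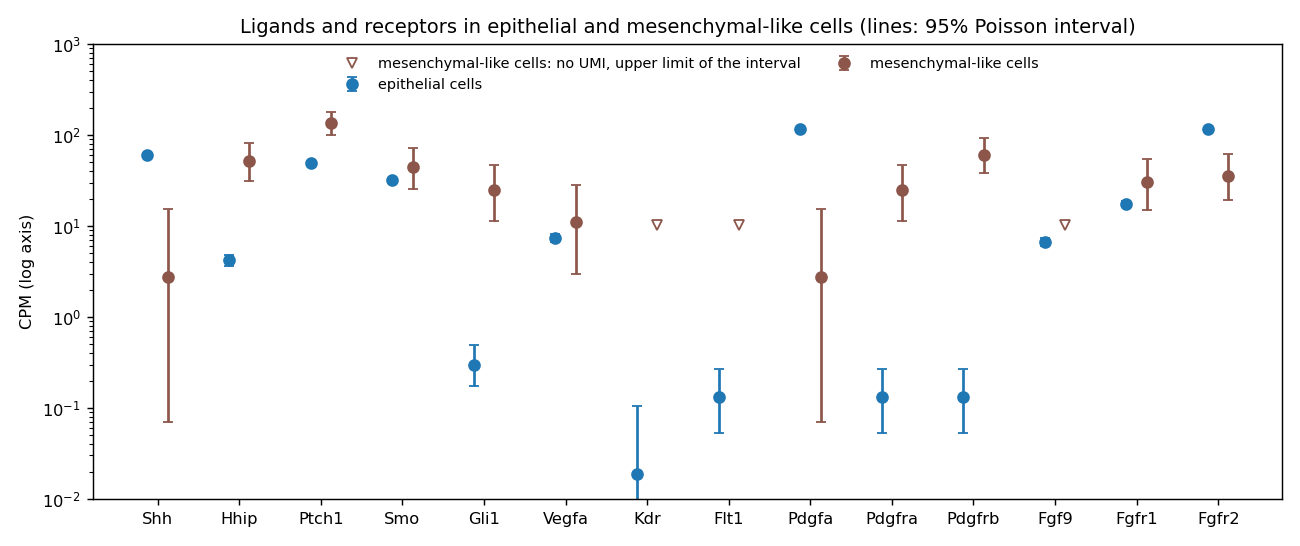
Levels of the 5 genes, their receptors and Gli1 in epithelial and mesenchymal-like cells (vertical axis, CPM, log scale). Points carry 95% Poisson intervals, and open triangles mark the upper limit of the interval for genes with no UMI in mesenchymal-like cells. Pdgfa at 116 CPM and Pdgfra at 0.131 CPM in the epithelium are reversed in mesenchymal-like cells, at 2.76 and 24.8 CPM.

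The genes of the same pathways were counted in the same way between distal progenitor-like and airway-like cells. Of 22 hedgehog genes, 12 had at least 50 UMIs, and Hhip alone passed 2-fold, towards the airway. With a minimum of 10 UMIs, 3 hedgehog genes were higher and 3 lower. Ptch1 was 1.16 times higher in distal progenitor-like cells (1.05 to 1.29) and Smo had a ratio of 1.07 (0.943 to 1.22). The hedgehog median was -0.20 (log2), against -0.13 over all genes. Among 14 measured genes of the VEGF and oxygen sensing list, Nrp1, a coreceptor, was 3.66 times higher in distal progenitor-like cells (2.59 to 5.33). Vegfc, a lymphatic growth factor, at 0.261 (0.160 to 0.421) and Nrp2 at 0.413 (0.325 to 0.526) were lower. The list's median was -0.22.

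None of the 3 measured PDGF genes (Pdgfa, Pdgfc and Furin) passed 2-fold, with a median log2 ratio of 0.14. With a minimum of 10 UMIs that median was -0.14, and 2 PDGF genes were lower. Of 16 FGF genes, 10 were measured, 3 were higher and 2 lower, beside 2.74% and 5.66% of all genes, with a median of 0.37. Besides Fgf9, the receptor gene Fgfr4 at 3.03 (2.03 to 4.68) and Fgf20 at 2.76 (1.38 to 6.26), a close relative of Fgf9, were higher in distal progenitor-like cells. Fgf1 at 0.327 (0.260 to 0.410) and Fgfr3 at 0.439 (0.377 to 0.512) were lower, and Fgfr2 at 1.19 (1.12 to 1.28) and Fgfr1 at 0.855 (0.730 to 1.0) stayed within 2-fold. Over all lists together, 74 of 107 genes were measured. Of these, 10 were higher and 16 lower by 2-fold, beside 2.74% and 5.66% of all genes. Among genes with no part in the clustering, as the list genes had none, the shares were 2.26% and 2.99%. The median of the measured list genes was -0.17. In cells of at most 14000 UMIs, 13 were higher and 11 lower.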

How the data were processed

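Single-cell RNA was captured with the 10x 3′ chemistry, version 2, and read on a NextSeq500, per the labels. As deposited, each matrix value is the count of UMIs for 1 gene in 1 barcode, without normalization, and the file header records software version 3.0.1. Per the submitters' processing notes, Cell Ranger, Seurat and build mm10 were used, with no roles given. How barcodes were called as cells is not given in the sources used here. The knockout library's expression was not analysed here.

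The 5 genes, the lists and the settings were chosen with earlier results of these data known. Cells with at least 1000 genes and at most 10% mitochondrial UMIs were kept, 111 of 3568 barcodes being removed (89 for few genes, 90 for mitochondrial share). After scaling each cell to 10000 UMIs, log values of 2000 variable genes seen in at least 10 cells, without the 5 genes, the pathway lists and cell-cycle genes, gave 20 principal components and 20 neighbours (scanpy 1.11.5, Leiden with leidenalg 0.10.2, resolution 0.5, seed 0; fine clusters at resolution 3). Clusters with at least 3 of the 5 pan-epithelial markers at 0.25 or more of the library level counted as epithelial. A cluster took a name when at least 3 markers of a type, each with at least 10 UMIs, reached 2 times the CPM of the other cells. Epithelial clusters of at least 50 cells left without a name became distal progenitor-like where 3 distal markers reached 1.5 times their airway-like CPM. The leading 10 genes were not to go against the name. For epithelial clusters, non-epithelial names needed at least 3 such markers among the leading genes, since 1 cell held 867 Pf4 UMIs. Rebuilt names may differ from those of the study. No doublet caller was run; cells with Xist and Y-linked UMIs were marked instead.

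Summed counts carry exact Poisson, shares exact Clopper-Pearson and ratios exact conditional intervals at the 95% level (scipy 1.17.1, numpy 2.4.6, Python 3.11.15). Of these, only the ratio intervals were run on simulated data. The simulated sums were drawn from the Poisson model that the intervals assume, so that run cannot show how well they hold for real cells. Named were the 5 genes, the receptors, up to 3 genes past 2-fold each way per list, and the 4 genes most like each. Gene positions are from GENCODE M21, by identifier. Alternatives changed the clustering, the cells, the depth and the weighting.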

Additional observations from a re-analysis of the deposited data

How the results depend on the processing

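No paired analysis was possible because there is 1 library per genotype and only the control was analysed. Directions of the distal progenitor-like to airway-like ratios held over 16 alternatives for Shh, Pdgfa, Fgf9 and Hhip, while Vegfa was above 1 in 1 of 16. Fgf9 ran from 3.51 to 21.8: its ratio was 9.34 with cell-cycle genes in the clustering, at least 10.1 in cells of at most 14000 UMIs, 10.0 as an equal mean over cells and 21.8 between Sox9 and Sox2 cells. Hhip was 0.130 with 3000 variable genes, 0.161 with the 5 genes and the pathway lists allowed, 0.322 with cell-cycle genes and 0.157 between Sox9 and Sox2 cells. Thinning to 5000 UMIs gave 0.745 for Shh and 0.714 for Vegfa, and Pdgfa was 1.39 in cells of at most 14000 UMIs. The cause of these moves was not tested.

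The alveolar type 2-like ratios depended on the clustering. Seed 1 and resolution 0.3 gave no such class, and the Smoc2-led cluster recurred only at resolution 0.8. Against distal progenitor-like cells, Shh, Vegfa and Pdgfa were 0.962, 0.681 and 0.88 at resolution 0.8, 0.976, 0.774 and 0.949 with 1000 variable genes, and 1.04, 1.02 and 0.972 with 3000. They were 1.05, 1.06 and 1.02 in cells of at least 2000 genes, 0.975, 0.642 and 0.871 at no more than 5% mitochondrial UMIs, and 0.941, 0.675 and 0.876 with cell-cycle genes. With the 5 genes and the pathway lists allowed, Shh was 0.943 and Vegfa 0.631, and thinned Shh was 0.950. Fgf9 was 0.859 with 1000 variable genes, where Hhip was 0.973. Hhip was 0.445 in cells of at least 2000 genes and at most 0.601 (at most 14000 UMIs) or 0.624 (thinned), bounds from 3 counts. In the Smoc2-led cluster, thinned Shh was 1.01, Vegfa was 0.360 at resolution 0.8 and Fgf9 was 0.0737 in cells of at most 14000 UMIs. The cause of these moves was not tested.

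Epithelial levels were 56.6 CPM for Shh, 112 for Pdgfa and 5.46 for Fgf9 in cells of at most 14000 UMIs. Shares of cells follow depth: thinned to 3000 UMIs they were 16.4% for Shh, 1.79% for Vegfa, 28.8% for Pdgfa, 1.74% for Fgf9 and 1.47% for Hhip, and without thinning 52.7%, 10.2%, 72.9%, 8.78% and 5.68%. Alternatives for the marker bins, for leaving out the fine cluster of 77 cells and for the likeness without it were chosen after seeing the data, and all bin ratios stayed within their intervals. Over all pathway genes together, counts stayed within 1.5 times, but 10 higher and 16 lower became 13 and 11 in cells of at most 14000 UMIs, where the median went from -0.17 to -0.018. In single lists, the VEGF genes lower by 2-fold went from 2 to 4 at 1.5-fold and to 1 in cells of at most 14000 UMIs, where other secreted signals had 10 higher and 7 lower in place of 6 and 11. At 1.5-fold 10 of these were higher.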

Other observations

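Other secreted signals were counted between the same classes. Of 43 listed genes outside the hedgehog, VEGF, PDGF and FGF families, 35 had at least 50 UMIs. In distal progenitor-like cells 6 were at least 2-fold higher and 11 at least 2-fold lower, where 2.74% and 5.66% of all genes were. Among genes with no part in the clustering, as these had none, the shares were 2.26% and 2.99%. In distal progenitor-like cells Bmp4, a tip signal, had 61.0 CPM, against 8.29 CPM in the airway-like class, or 7.36 times as much (5.93 to 9.24). Cxcl15, a chemokine of lung epithelium, had a ratio of 3.50 (3.09 to 3.97), and Wnt7b a ratio of 2.97 (2.69 to 3.29). For Bmp3 the levels were 1.36 CPM and 22.2 CPM, or 0.0615 times (0.0437 to 0.0850). Wnt5a at 0.127 (0.0746 to 0.209) and Nrg1, an ErbB receptor ligand, at 0.187 (0.127 to 0.272) were also lower in distal progenitor-like cells. Their median was -0.21 on the log2 scale, and -0.45 with a minimum of 10 UMIs.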
